A study of Mus musculus with 16 samples.

Results

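Maternal restraint stress without insecticide was compared with no stress in tissue captured for its migrating GABAergic cells from the embryonic mouse cortex. The comparison takes 8 of the 16 samples of the series, placed by the exposures in their labels, and it was described across all genes of the deposited table. The 4 stressed samples came from dams given corn oil vehicle and restrained, and the 4 non-stressed samples came from dams given corn oil and left unrestrained. The other 8 samples, from dams given alpha-cypermethrin (a pyrethroid insecticide) at 10 mg/kg with or without restraint, 4 of each, entered the shared fit and gave a second stress comparison.

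Every dam was CD1 and received its gavage daily on gestational days 11 to 14. Stressed dams were restrained under bright light in 3 sessions of 45 min on both day 12 and day 13, the first starting 30 min after gavage. On day 14 came the final gavage, 90 min before the dams were killed, and then 1 more round of restraint that ended 15 min before that time. Every embryo carried GAD67-GFP+/-, a fluorescent reporter named for the enzyme encoded by Gad1, was collected at embryonic day 14.5, was labelled male and was the only embryo taken from its litter. About 1000 GFP-positive cells per embryo were cut by laser from the cortical plate, near the front of the migrating stream, out of 10 fixed sections of 10 µm, so each library is a bulk profile of captured spots of tissue. The labels call these cells neural progenitors.

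Restraint activates the maternal stress axis, which releases glucocorticoids. In a cell that holds the glucocorticoid receptor (Nr3c1), the hormone-bound receptor enters the nucleus and binds response elements near target genes such as Fkbp5, Tsc22d3, Sgk1, Per1 and Dusp1, which are widely used as readouts of the hormone. Cortical GABAergic interneurons are born in the ganglionic eminences of the ventral forebrain and travel tangentially into the cortex. They follow cues read by receptors such as Cxcr4 and Erbb4, and they are recognised by Gad1, Gad2, Dlx genes and Lhx6.

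The start regions of 3 hormone or stress readout genes are shown because the values of these genes are set out further on. The windows run from 250 bases before to 50 after a transcript start in RefSeq (GRCm38.p6) and are written 5′ to 3′ on the gene's strand, with the matched motif in capitals. The Sgk1 window lies at chr10:21993640-21993939 on the plus strand and is 1 of 6 windows of this gene. The capitals mark a glucocorticoid response element, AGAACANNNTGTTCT.
Sgk1: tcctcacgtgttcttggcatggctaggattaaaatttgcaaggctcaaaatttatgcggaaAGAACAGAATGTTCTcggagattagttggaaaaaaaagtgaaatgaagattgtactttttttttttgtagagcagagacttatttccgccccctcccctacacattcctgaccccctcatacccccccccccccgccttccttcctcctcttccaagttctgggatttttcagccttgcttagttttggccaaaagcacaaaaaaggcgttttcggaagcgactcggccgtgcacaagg
The Tsc22d3 window lies at chrX:140600473-140600772 on the minus strand and is 1 of 3 windows of this gene. Its capitals mark the shorter motif AGAACA, read on the opposite strand, which is also contained in the full element.
Tsc22d3: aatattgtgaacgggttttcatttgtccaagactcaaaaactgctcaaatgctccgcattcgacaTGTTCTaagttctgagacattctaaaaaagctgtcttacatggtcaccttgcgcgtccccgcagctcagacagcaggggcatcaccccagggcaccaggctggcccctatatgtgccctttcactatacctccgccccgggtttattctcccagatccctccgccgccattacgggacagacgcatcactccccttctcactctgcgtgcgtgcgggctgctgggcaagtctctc
The Dusp1 window lies at chr17:26508423-26508722 on the minus strand. Its capitals mark a cyclic AMP response element, TGACGTCA.
Dusp1: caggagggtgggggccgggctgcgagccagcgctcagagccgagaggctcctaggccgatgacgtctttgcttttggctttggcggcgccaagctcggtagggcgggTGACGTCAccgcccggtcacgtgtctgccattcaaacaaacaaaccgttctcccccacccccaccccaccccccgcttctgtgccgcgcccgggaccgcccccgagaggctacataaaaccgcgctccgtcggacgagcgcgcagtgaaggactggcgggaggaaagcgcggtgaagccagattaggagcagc
Both strands were searched in 32851 windows. The full glucocorticoid element was in 3 of them (0.00913%), AGAACA in 6233 (19.0%) and TGACGTCA in 588 (1.79%). Of the 28 listed glucocorticoid response genes with a window, Tsc22d3, Sgk1, Sult1a1 and Bcl6 had AGAACA in a window, and Dusp1, Errfi1 and Arl4d had TGACGTCA. Counted by gene in the same way, 15.0% of the 10172 tested genes with a window had AGAACA and 3.66% had TGACGTCA.

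Total counts were 2410165 to 4081404 in the stressed libraries and 3013350 to 3747242 in the non-stressed libraries, and 12153 to 15220 and 13868 to 15741 genes had a count. Neither quantity differed beyond the spread between libraries (exact permutation tests of 4 against 4, two-sided, p = 0.343 and 0.257, both 0.343 after Benjamini-Hochberg adjustment over 3 properties). Stressed replicate 1 stood apart. It had the fewest counts and detected genes, and its median correlation with the other vehicle libraries was 0.792, against 0.837 to 0.894 for the other 7. It went against its male label, with 4528 CPM of Xist (CPM are counts scaled by library size), the RNA that coats an inactive X chromosome, where the other 7 had at most 8.14 CPM. Its Y-linked genes summed to 0.476 CPM, against 198 to 291 CPM in the other stressed libraries and 224 to 320 CPM in the non-stressed ones. The counts of genes and many of the values are therefore also given without this library, and for several gene lists the range of the median over the 8 fits that each leave out 1 vehicle library is given. The library descriptions also carry a code, which divides the vehicle samples 2 against 2 (replicates 1 and 2 of each group under the first code, 3 and 4 under the second).

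No gene was called at an adjusted p under 0.05 by edgeR's quasi-likelihood test with Benjamini-Hochberg adjustment, 0 of 13224 (0%), and the smallest adjusted p was 0.965. At an unadjusted p under 0.05 there were 672 genes (5.08% of those tested), 423 of them higher with stress (3.2%) and 249 lower (1.88%). DESeq2 and limma voom likewise called 0 genes, with 1030 and 432 at an unadjusted p under 0.05. The split of higher and lower genes depended on the scaling, 263 and 280 with upper-quartile scaling and 191 and 241 with limma voom. Over all tested genes the fitted log2 difference, stressed over non-stressed, had a median of 0.01, and 50.8% of genes were fitted higher. The groups did not overlap for 163 genes higher with stress (1.23%) and 220 lower (1.66%). Without stressed replicate 1, 0 of 13609 genes (0%) were called and 472 (3.47%) had an unadjusted p under 0.05, 260 higher (1.91%) and 212 lower (1.56%). In that comparison 49.6% of genes were fitted higher, and the groups did not overlap for 2.89% of genes on the higher and 2.81% on the lower side. Without stressed replicate 4 there were 1089 genes at an unadjusted p under 0.05 and still 0 called, with a smallest adjusted p of 0.0584 by the same test. The genes named below are therefore descriptions of the leading values in this fit, in which every adjusted p was 0.965 or above.

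Much of the excess of higher genes lay in stressed replicate 1. Of the 423 higher genes, 306 (72.3%) had their highest stressed value in that library, against 30.2% of all tested genes. Replicates 2, 3 and 4 held the highest value for 17, 91 and 9 of the 423. Among the 249 lower genes, 81 had no count in stressed replicate 1 and 12 had none in all 4 stressed libraries. Without that library 649 of the 672 genes were fitted in the same direction, and 250 of them kept an unadjusted p under 0.05. The fit without it reuses the remaining libraries, which favours a kept direction.

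**Figure D1:**
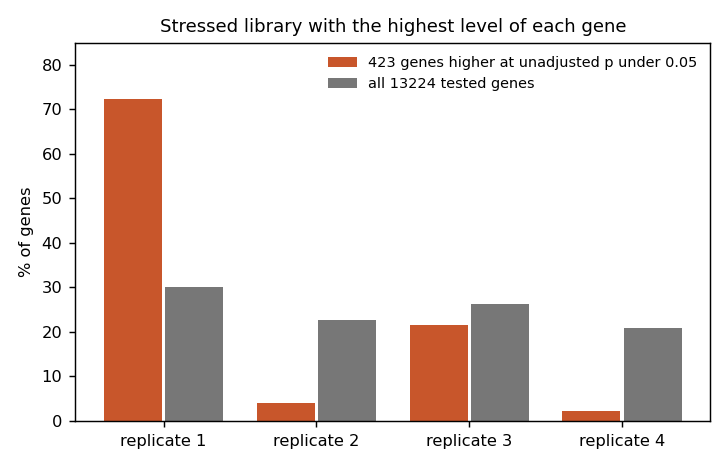
Share of genes (%) whose highest level among the 4 stressed libraries was in each replicate, for the 423 genes higher with stress at an unadjusted p under 0.05 (orange) and for all 13224 tested genes (grey). Replicate 1 held the highest value for 72.3% of the 423 genes and 30.2% of all genes.

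The 24 genes with the smallest unadjusted p comprised 18 higher and 6 lower in stressed samples, and 15 of the 18 higher genes peaked in stressed replicate 1. All 24 kept their direction without that library and 15 kept an unadjusted p under 0.05. The stressed and non-stressed libraries did not overlap for 5 of the higher and 5 of the lower genes. Over all tested genes the shares without overlap were 1.23% higher and 1.66% lower. The 24 were chosen by p on these same libraries, which favours both a lack of overlap and a kept direction. In bulk samples, fewer cells of a type and less RNA per cell cannot be told apart, which holds for every level given here.

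Nestin (Nes), an intermediate filament protein of neural progenitors, on chromosome 3 from 87971078 to 87980451 in GRCm38, had 699, 476, 537 and 436 CPM in stressed samples and 450, 312, 265 and 279 CPM in non-stressed samples. Only 1 non-stressed library, the one at 450 CPM, reached into the stressed range. The log2 difference was 0.72 ± 0.20 (SE, unadjusted p = 0.00106), and 0.57 without stressed replicate 1. Inf2, a formin that builds and severs actin filaments, on chromosome 12 from 112588784 to 112615557, had 67.5, 22.9, 39.5 and 16.5 CPM in stressed samples, against 7.07, 5.61, 8.33 and 10.3 CPM in non-stressed samples. Every stressed library lay above every non-stressed one, with a log2 difference of 2.22 ± 0.61 (SE, unadjusted p = 0.00116) and 1.74 without replicate 1. Fkbp1a, the small prolyl isomerase that binds the drug FK506, on chromosome 2 from 151542483 to 151561692, had 365, 218, 246 and 189 CPM with stress and 118, 174, 160 and 160 CPM without. These groups did not overlap either, and the log2 difference was 0.73 ± 0.22 (SE, unadjusted p = 0.0023), or 0.51 without replicate 1.

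Zscan25, a zinc finger gene on chromosome 5 from 145280500 to 145291278, had 17.6, 19.7, 35.3 and 5.89 CPM in stressed samples, against 0, 0.267, 3.53 and 1.03 CPM in non-stressed samples. Its log2 difference was 3.95 ± 1.10 (SE, unadjusted p = 0.00122) and 4.01 without stressed replicate 1, so the difference did not depend on that library. Ap5m1, a subunit of the AP-5 adaptor complex of vesicle traffic, had 63.3, 24.4, 53.4 and 26.6 CPM with stress, against 4.04, 12.3, 14.6 and 15.2 CPM without. It overlaps Exoc5 in the annotation, and since the use of strand in counting is not given in the sources used here, reads of the pair cannot be told apart. Trim3, a ubiquitin ligase, was the other of the 5 higher genes without overlap. It had 199, 57.9, 50.2 and 64.3 CPM with stress and 20.3 to 43.8 CPM without. Its log2 difference was 1.48 with stressed replicate 1, the library at 199 CPM, and 0.79 without it.

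Other genes near the top were set by 1 library. S1pr3, a receptor for sphingosine-1-phosphate, had 242 CPM in stressed replicate 1 and 23.5, 41.7 and 13.2 CPM in the other stressed samples, against 6.73, 21.6, 13.9 and 17.8 CPM in non-stressed samples. Its log2 difference was 2.40 with all 8 libraries and 0.79 (unadjusted p = 0.152) without that library. The log2 difference of Snx1, a sorting nexin of endosomes, was 1.92 with it and 0.74 without it. That of Sertad4 was 1.72 with it and 0.32 without it, and that of Cacng7, an auxiliary subunit of AMPA receptors, was 1.77 with it and 0.25 without it. Med25, a Mediator subunit, was set by another library, with 46.6, 383, 37.8 and 40.5 CPM in stressed samples, against 38.4, 38.2, 36.1 and 29.3 CPM in non-stressed samples.

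The 6 lower genes were mostly of low level. Cpne4, a calcium-binding copine on chromosome 9 from 104547286 to 105034544, was the best measured, with 8.56, 17.9, 9.97 and 17.2 CPM in stressed samples and 55.9, 45.4, 47.2 and 21.6 CPM in non-stressed samples. The groups did not overlap, and the log2 difference was -1.65 ± 0.47 (SE, unadjusted p = 0.0017), or -1.49 without stressed replicate 1. Snhg10, a small nucleolar RNA host gene on chromosome 12 from 105030617 to 105032279, had no count in all 4 stressed libraries, against 3.37, 2.14, 4.54 and 4.63 CPM in the non-stressed ones. Set against a floor of 3 counts over the stressed group it was at least 15.1-fold lower, and it overlaps the annotated small RNAs Mir3069 and Scarna13. Zfp764 had 0, 1.88, 2.85 and 3.3 CPM with stress and 12.8, 43.8, 19.9 and 6.95 CPM without. Fcer2a had 2 counts in all stressed libraries together and 92 in the non-stressed ones, a ratio of 0.0256 per unit depth with a 95% counting interval of 0.00306 to 0.0953.

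**Figure D2:**
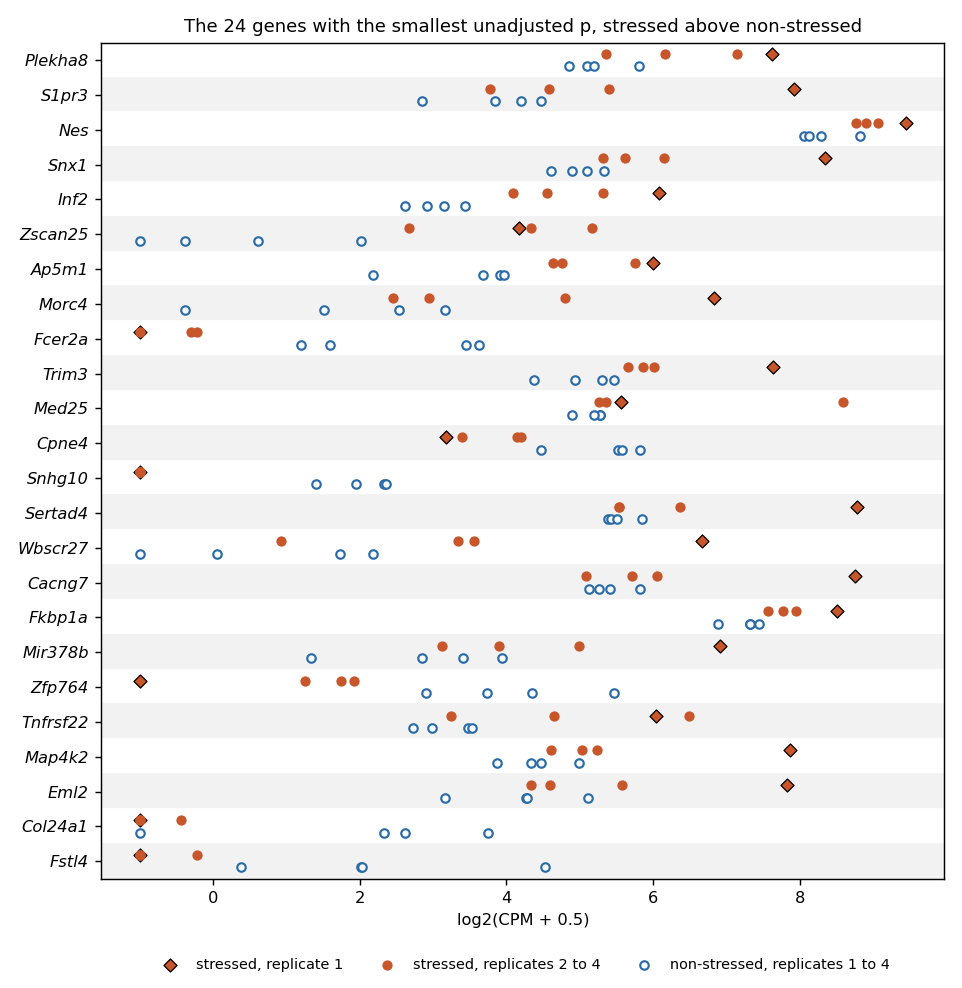
Levels of the 24 genes with the smallest unadjusted p, as log2(CPM + 0.5), with the 4 stressed libraries (orange, replicate 1 as a diamond) above the 4 non-stressed libraries (blue circles) in each row. The diamond is the highest point for 15 of the 18 higher genes, and for 5 higher and 5 lower genes the stressed points do not overlap the non-stressed ones. Over all tested genes the shares without overlap were 1.23% higher and 1.66% lower, and the 24 were chosen by p on these libraries.

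Leaving out stressed replicate 1 brought other genes to the front, and the 12 with the smallest unadjusted p then were 10 higher and 2 lower. Cntn3, a contactin adhesion protein of neurons on chromosome 6 from 102162655 to 102573101, had 4.38, 9.62 and 6.13 CPM in stressed replicates 2 to 4, against 32.3, 33.1, 20.7 and 25.5 CPM in non-stressed samples. The log2 difference was -2.05 without replicate 1 (unadjusted p = 0.000375), while replicate 1 itself had 27.6 CPM and brought the value with all 8 libraries to -1.24. DESeq2 on the 15 libraries called this gene alone (log2 difference -2.06, adjusted p = 0.0134 after Benjamini-Hochberg adjustment), where edgeR's quasi-likelihood test and limma voom called 0. Trp53bp1, a DNA double-strand break repair protein, had 251, 353, 363 and 335 CPM with stress, against 233, 199, 241 and 225 CPM without, and its groups did not overlap. It overlaps Tubgcp4. Dapk1, a death-associated kinase, had 98.5 CPM in stressed replicate 1 and 184 to 207 CPM in replicates 2 to 4, against 104 to 117 CPM in non-stressed samples. Ube2q1, a ubiquitin-conjugating enzyme, had 312 CPM in stressed replicate 1 and 51.7, 76.6 and 75 CPM in the others, against 146, 147, 103 and 141 CPM in non-stressed samples, so its log2 difference was -0.98 without replicate 1 and -0.07 with it. Tubgcp6, Ccdc167 and Plod2 were set by stressed replicate 3, at 116, 196 and 169 CPM, where the other stressed libraries had at most 28.2 CPM of any of the 3.

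Receptors and cofactors of the hormone were measured at low to moderate levels. The glucocorticoid receptor gene Nr3c1 had 91.3, 23.5, 7.84 and 10.8 CPM in stressed samples, against 13.1, 15, 29.3 and 31.1 CPM in non-stressed samples. The stressed values lay both above and below the non-stressed ones, and the log2 difference of 0.58 with all 8 libraries was -0.65 without stressed replicate 1 and -0.24 with limma voom. The mineralocorticoid receptor gene Nr3c2, whose product binds the same hormones, had 0, 1.25, 11.8 and 2.36 CPM with stress and 4.38, 5.34, 17.9 and 6.69 CPM without. Hsp90aa1, which encodes a chaperone of these receptors, had 458 to 627 CPM with stress and 504 to 648 CPM without. Of the 15 receptor, chaperone and cofactor genes tested, 9 were fitted higher and 6 lower, and the median log2 difference was 0.03, with a range of -0.02 to 0.19 on leaving out 1 library. Ncor1, a nuclear receptor corepressor, was the only member at an unadjusted p under 0.05 in edgeR's test. It had 1517 CPM in stressed replicate 1 and 580 to 652 CPM in the others, against 498 to 631 CPM in non-stressed samples, and its log2 difference was 0.55 with replicate 1 and 0.11 without it.

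The response genes of the hormone divided evenly, 14 above and 14 below 0 among 28 tested, at a median log2 difference of 0.00 beside 0.01 for all genes, and none had an unadjusted p under 0.05, where 5.08% of all genes were. Without stressed replicate 1 the median was 0.17, and with upper-quartile scaling it was -0.06. Leaving out 1 library at a time it ranged from -0.08 to 0.29, the high end without non-stressed replicate 2, and it was -0.01 with the first library code alone and 0.30 with the second. Fkbp5, a receptor co-chaperone that the hormone induces, had 48, 37.6, 15 and 42.7 CPM in stressed samples and 38.4, 16.8, 38.4 and 46.6 CPM in non-stressed samples. The groups covered the same range, and the log2 difference of 0.03 ± 0.43 (SE) was small beside its error. Tsc22d3, which encodes the anti-inflammatory protein GILZ, had 21.9, 21.3, 8.55 and 8.96 CPM with stress and 2.02, 14.2, 5.8 and 5.4 CPM without. Its log2 difference of 1.14 ± 0.75 (SE, unadjusted p = 0.141) was the highest of the 5 readout genes, and 1 non-stressed library lay within the stressed range.

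Sgk1, a kinase that regulates ion transport and carries the full response element shown above, had 16.6, 34.1, 15.3 and 29.7 CPM in stressed samples and 15.5, 65.4, 21.7 and 25.2 CPM in non-stressed samples. Its log2 difference was -0.41 ± 0.54 (SE) and turned to 0.21 without non-stressed replicate 2, the library at 65.4 CPM. Per1, a clock gene, had 36.1, 12.5, 48.1 and 14.1 CPM with stress and 19.5, 9.62, 26 and 17 CPM without. Dusp1, a phosphatase of MAP kinases, had 13.3, 83.6, 14.2 and 58.5 CPM with stress and 26.3, 72.9, 34.1 and 34.7 CPM without. The stressed values of Dusp1 fell on both sides of the non-stressed ones. Bcl6, a transcriptional repressor, had 37.1, 7.52, 17.5 and 16.5 CPM with stress, against 65, 28, 34.8 and 29.9 CPM without. Only stressed replicate 1 reached the non-stressed range, and the log2 difference was -1.01 with all 8 libraries and -1.51 (unadjusted p = 0.00642) without it. Ndrg2, another gene the hormone induces, had 133, 44.8, 65.9 and 79 CPM with stress and 60.3, 49.1, 44.4 and 41.2 CPM without.

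Genes with these motifs in a window were fitted higher and lower in similar numbers. Among 10172 tested genes with a window, 1521 held AGAACA, and 772 of these were fitted higher and 749 lower with stress. An unadjusted p under 0.05 was reached by 5.33% of genes with the motif and 5.20% of genes without it, with a median log2 difference of 0.01 in both. For TGACGTCA the shares were 5.91% of 372 genes with it and 5.19% of genes without, and 192 of the 372 were fitted higher and 180 lower. Sgk1 was the only 1 of these 10172 genes with the full element in a window. Variant spellings of the element and sites outside the windows were not searched.

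Immediate early genes are transcribed within minutes of a stimulus, and the last restraint ended 15 min before euthanasia. Of 18 tested, 13 were fitted higher and 5 lower, and the median log2 difference was 0.15, or 0.35 without stressed replicate 1, beside 0.01 and -0.00 for all genes. Over the fits that leave out 1 library it ranged from 0.10 to 0.35. Egr1, a zinc finger transcription factor, had 10.5, 82.1, 50.9 and 44.5 CPM in stressed samples and 16.5, 17.1, 27.3 and 32.7 CPM in non-stressed samples. Stressed replicate 1 was the lowest of the 8 and the other 3 stressed libraries were above all non-stressed ones. The log2 difference was 1.01 ± 0.55 (SE, unadjusted p = 0.0801) and 1.34 (unadjusted p = 0.0148) without replicate 1. Nr4a3, an orphan nuclear receptor, had 332, 276, 213 and 226 CPM with stress and 131, 260, 166 and 192 CPM without. Klf6, a zinc finger gene, went the other way, with 20, 55.4, 55.9 and 76.4 CPM with stress and 95.3, 99.4, 71.4 and 76.2 CPM without (log2 difference -0.71, unadjusted p = 0.0415, and -0.45 with an unadjusted p of 0.138 without stressed replicate 1, the library at 20 CPM). Fos, a subunit of the AP-1 factor, had too few counts to be tested, with 0, 2, 0 and 35 counts in stressed libraries and 0, 0, 2 and 0 in non-stressed ones, so nearly all its counts came from stressed replicate 4.

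**Figure D3:**
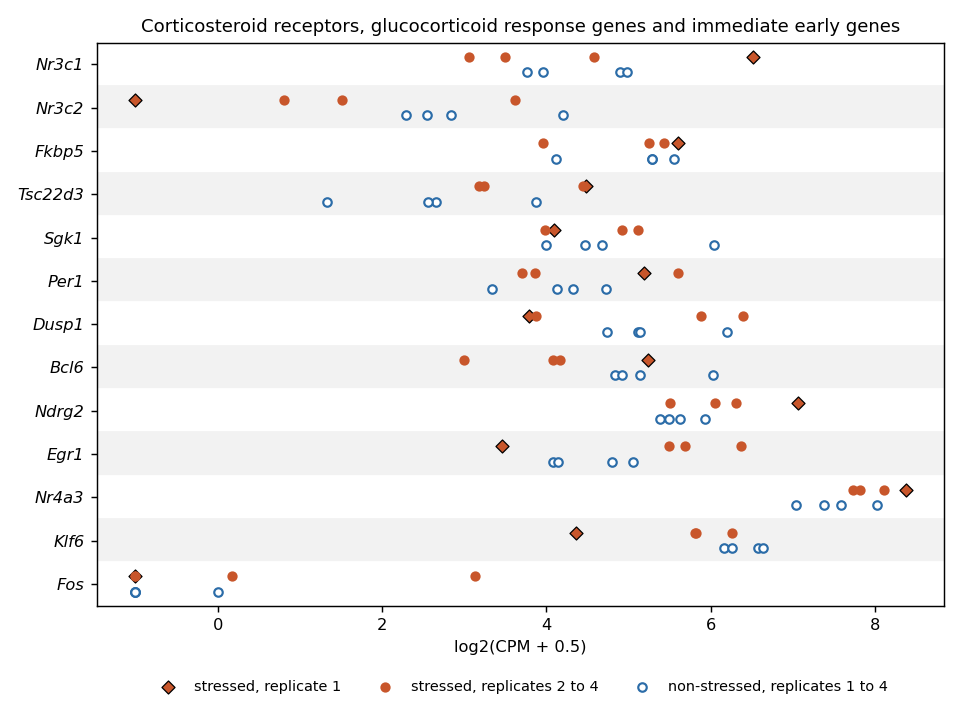
Levels of the corticosteroid receptor genes, glucocorticoid response genes and immediate early genes named in the text, as log2(CPM + 0.5), with the 4 stressed libraries (orange, replicate 1 as a diamond) above the 4 non-stressed libraries (blue circles) in each row. The groups overlap in every row. The 3 orange circles of Egr1 lie above all of its blue circles, while its diamond lies below them.

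Heat shock and protein-folding genes were fitted higher for 17 and lower for 13 of 30, with none at an unadjusted p under 0.05. Their median log2 difference was 0.08, and -0.02 without stressed replicate 1 and -0.01 with upper-quartile scaling. It ranged from -0.04 to 0.10 on leaving out 1 library. Pdia3, a protein disulfide isomerase of the endoplasmic reticulum, had 89.4 to 166 CPM with stress, below the 191 to 233 CPM of the non-stressed samples (log2 difference -0.56, unadjusted p = 0.0675), and it overlaps Catsper2. Dnajb4, a co-chaperone, had 3.33, 21.3, 60.9 and 27.1 CPM with stress and 1.35, 8.81, 17.2 and 17.2 CPM without. Hsph1, a chaperone, had 480 CPM in stressed replicate 1 and 84.1 to 139 CPM in the others, against 95.7 to 177 CPM in non-stressed samples. Among 19 oxidative stress defence genes, 6 were fitted higher and 13 lower, and the median log2 difference of -0.12 ranged from -0.17 to -0.04 on leaving out 1 library. Txnip, an inhibitor of thioredoxin, was higher, at 79.4, 93, 92.6 and 50.4 CPM with stress and 45.1, 44.6, 52.5 and 43 CPM without (log2 difference 0.77, unadjusted p = 0.02, and 0.77 without replicate 1). Of its 8 values, 1 stressed library, at 50.4 CPM, lay within the non-stressed range.

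The captured tissue carried interneuron transcripts in both groups. The 13 GABAergic markers summed to 1629 to 2262 CPM in stressed samples and 1562 to 2160 CPM in non-stressed samples, with a median log2 difference of 0.13 and none of Gad1, Gad2, Dlx1, Lhx6 or Sox6 at an unadjusted p under 0.05, Sst being the only member that was. The median was also 0.13 without stressed replicate 1, but it was -0.02 without stressed replicate 3, -0.56 with the first library code alone and 0.36 with the second, so its direction was not stable. Gad2, which makes GABA, had 146, 209, 323 and 321 CPM with stress and 203, 265, 198 and 249 CPM without. Lhx6, a transcription factor of interneurons from the medial ganglionic eminence, had 286 to 347 CPM with stress and 195 to 335 CPM without. Gad1, whose locus names the reporter, had 125, 40.4, 78 and 51.9 CPM with stress and 48.5, 42.7, 62.1 and 62.3 CPM without, and it overlaps Gad1os. Among 20 interneuron transcription factors, 12 were fitted higher and 8 lower, and the median log2 difference was 0.09, or 0.13 without stressed replicate 1. It was -0.0048 without stressed replicate 3, -0.26 with the first library code alone and 0.28 with the second.

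Neuropeptide and subtype genes were fitted lower for 9 of 12 members, with a median log2 difference of -0.36 and -0.25 without stressed replicate 1. The median ranged from -0.49 to -0.15 on leaving out 1 library, and it was -0.66 with the first library code alone and 0.03 with the second, each 2 against 2. Sst, the peptide somatostatin, had 122, 122, 178 and 162 CPM in stressed samples and 394, 124, 190 and 187 CPM in non-stressed samples (log2 difference -0.61, unadjusted p = 0.0421, and -0.53 with an unadjusted p of 0.0929 without stressed replicate 1). The stressed values lay close to those of non-stressed replicates 2 to 4, and non-stressed replicate 1 lay far above all others. Cck, the peptide cholecystokinin, on chromosome 9 from 121489824 to 121495694, had 0, 8.14, 0.712 and 10.6 CPM with stress, against 15.2, 29.4, 20.2 and 21.6 CPM without. Its groups did not overlap, and the log2 difference was -2.10 ± 0.91 (SE, unadjusted p = 0.0297) and -1.71 without replicate 1.

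Guidance and motility genes were evenly divided. Of 31 migration receptors and ligands, 15 were fitted higher and 16 lower, and the median log2 difference was -0.02, or 0.00 without stressed replicate 1. Robo2, a receptor for the repellent Slit proteins, on chromosome 16 from 73891839 to 74411825, had 143, 151, 122 and 166 CPM with stress, below the 235, 229, 167 and 190 CPM of the non-stressed samples. The groups did not overlap, although 166 and 167 CPM nearly touched (log2 difference -0.50 ± 0.22, SE, unadjusted p = 0.034, and -0.49 without stressed replicate 1). Nrg3, a ligand of Erbb4, had 64.7, 83.3, 58.4 and 105 CPM with stress and 187, 116, 95.9 and 102 CPM without (log2 difference -0.68, unadjusted p = 0.0328, and -0.60 with an unadjusted p of 0.0694 without stressed replicate 1). Cxcr4, the receptor for the chemokine Cxcl12, had 78, 131, 71.2 and 63.4 CPM with stress and 42.4, 84.4, 45.9 and 41.7 CPM without. In this gene, 1 non-stressed library reached into the stressed range (log2 difference 0.68 ± 0.36, SE, unadjusted p = 0.071, and 0.72 without replicate 1). Erbb4 itself had 425 to 593 CPM with stress and 389 to 572 CPM without.

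Cytoskeletal genes of migrating neurons were fitted higher for 20 of 32 members, with a median log2 difference of 0.14, and 0.04 without stressed replicate 1. Beside Inf2, the member at an unadjusted p under 0.05 was Pafah1b1, the lissencephaly gene that regulates dynein, at 737, 391, 537 and 400 CPM with stress and 269, 327, 449 and 425 CPM without. Its log2 difference was 0.49 with stressed replicate 1 and 0.27 (unadjusted p = 0.181) without it. Dcx, a microtubule protein of migrating neurons, had 4913, 3540, 4092 and 3906 CPM with stress and 3411, 3919, 3413 and 3953 CPM without.

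Receptors and channels were examined for the signals that migrating interneurons receive. Among 27 GABA and glutamate receptor genes, 18 were fitted lower and 9 higher. Their median log2 difference was -0.20 with and without stressed replicate 1, and none was at an unadjusted p under 0.05. Grin2b, an NMDA receptor subunit, had 317, 279, 362 and 305 CPM with stress and 557, 444, 305 and 308 CPM without, and Grik2, a kainate receptor subunit, had 115 to 188 CPM with stress and 78.3 to 119 CPM without. Of 11 monoamine and acetylcholine receptor genes, 9 were fitted lower, with a median of -0.96, but these genes were near the detection limit, summing over the 30 listed to 84.2 to 138 CPM in stressed libraries and 104 to 259 CPM in non-stressed ones. That median was -0.50 without stressed replicate 1 and 0.17 without non-stressed replicate 1. Of 29 voltage-gated channel genes, 13 were fitted higher and 16 lower, and the median log2 difference of -0.03 ranged from -0.09 to 0.06 on leaving out 1 library. Scn8a, a sodium channel, had 420 CPM in stressed replicate 1 and 161 to 177 CPM in the others, against 98.3 to 161 CPM in non-stressed samples, and its log2 difference was 0.73 with that library and 0.28 without it. Cacna2d2, an auxiliary calcium channel subunit, likewise had 0.80 with it and 0.46 without it.

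Growth, chromatin and metabolism gave no list with more than 1 gene at an unadjusted p under 0.05. Cell cycle and DNA replication genes were fitted higher for 12 and lower for 23 of 35, with a median log2 difference of -0.16. That median was -0.07 without stressed replicate 1, -0.06 without non-stressed replicate 4 and -0.26 without non-stressed replicate 3. Mcm7, a replicative helicase subunit, had 9.04, 26, 36 and 36.5 CPM with stress and 72, 51.5, 38.9 and 28.8 CPM without. It overlaps Ap4m1, Cops6, Mir106b, Mir25 and Mir93. Ccnd1, a G1 cyclin, leaned the other way at 46.7 to 77.6 CPM with stress and 34.2 to 49.7 CPM without. Chromatin and DNA methylation genes were fitted higher for 15 and lower for 17 of 32, and the median of -0.04 ranged from -0.06 to 0.05 on leaving out 1 library. Kmt2a, a histone methyltransferase, was at an unadjusted p of 0.0402, with 1998 CPM in stressed replicate 1 and 913 to 1074 CPM in the others, against 858 to 1171 CPM in non-stressed samples, and its log2 difference was 0.41 with that library and 0.10 without it. Translation factors and ribosomal proteins were fitted higher for 21 of 31, with a median of 0.06 and -0.02 with upper-quartile scaling. Inflammation and interferon genes were 9 higher and 8 lower, with a median of 0.03, -0.05 with upper-quartile scaling and -0.12 to 0.16 on leaving out 1 library.

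Hypoxia and glycolysis genes were fitted higher for 11 and lower for 12 of 23, with a median of -0.03 that ranged from -0.14 to 0.03 on leaving out 1 library, and Egln3, a prolyl hydroxylase that marks the HIF factors for breakdown, stood at the low end. It had 0, 1.57, 1.42 and 0.471 CPM in stressed samples, against 5.39, 15.8, 6.06 and 4.89 CPM in non-stressed samples. The groups did not overlap, and the log2 difference was -3.14 ± 1.31 (SE, unadjusted p = 0.0238) and -2.78 without stressed replicate 1. Hif1a and Epas1, which encode such factors, had 149 to 283 and 75.4 to 259 CPM with stress, against 156 to 188 and 74.4 to 88.5 CPM without. Kdm6a and Kdm5c, X-linked histone demethylases that escape X inactivation, had 158 to 247 and 94.6 to 194 CPM with stress, against 113 to 152 and 87 to 135 CPM without. Without the library high in Xist the log2 difference was 0.59 for Kdm6a and 0.48 for Kdm5c, against 0.61 and 0.58 with it, and the 481 tested X-linked genes had a median log2 difference of -0.04.

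Markers of other cell types were present in both groups, and their part in the results above was not tested. In every vehicle library the glutamatergic neuron markers summed higher than the 13 GABAergic markers, which reached at most 2262 CPM. Nfib alone gave 3303 to 4334 CPM of the glutamatergic sum with stress and 3096 to 3362 CPM without. Sums over different lists do not compare amounts of cell types. Because markers of other cell types were present, levels given here cannot be assigned to interneurons alone. The 15 cortical glutamatergic neuron markers summed to 8384 to 12120 CPM in stressed samples, the highest in replicate 1, and 8218 to 8959 CPM in non-stressed samples, with 9 fitted higher and 6 lower. Their median log2 difference was 0.20, or 0.04 without stressed replicate 1. Slc17a7, a vesicular glutamate transporter, had 431, 55.4, 83 and 58.9 CPM with stress and 63, 35.3, 80.5 and 27.5 CPM without, and its log2 difference was 1.60 with replicate 1 and 0.35 without it. Neurod6 and Tbr1, defining markers of these neurons, had 1102 to 2180 and 738 to 823 CPM with stress, against 1031 to 1618 and 731 to 1103 CPM without.

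Radial glia and progenitor markers were fitted higher for 6 and lower for 12 of 18, although Nes was among the higher ones, with a median log2 difference of -0.06, or -0.19 without stressed replicate 1. They summed to 1875 to 2179 CPM in stressed samples and 1727 to 1981 CPM in non-stressed samples, and the definers Pax6, Eomes and Hes5 were at most 19.1, 0.476 and 0 CPM with stress and 18.7, 3.6 and 0.757 CPM without. Tnc, an extracellular matrix protein of radial glia, had 0, 0.313, 5.7 and 1.41 CPM with stress and 38.4, 2.14, 14.9 and 11.6 CPM without (log2 difference -3.13 ± 1.02, SE, unadjusted p = 0.00495, and -2.77 without replicate 1). The 11 Cajal-Retzius markers summed to 2871 to 3650 CPM with stress and 2252 to 3084 CPM without, with 6 fitted higher and 5 lower and a median log2 difference of 0.01, or 0.21 without stressed replicate 1. Of the 3 tested oligodendrocyte lineage genes, 2 were fitted higher, with a median log2 difference of 0.58, or 0.99 without stressed replicate 1. The lower one was Pdgfra, at 9.04 to 52.1 CPM with stress and 45.2 to 78 CPM without. Its log2 difference was -1.09, or -0.79 without stressed replicate 1. The median of the oligodendrocyte list ranged from 0.02 to 1.25 on leaving out 1 library. It was -0.25 with only the 8 vehicle libraries and -0.19 with the first library code alone, so its direction was not stable. The 8 listed genes summed to 9.04 to 73.1 CPM with stress and 62.2 to 90.3 CPM without.

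Meningeal fibroblast and pericyte markers were fitted lower for 13 of 19, with a median log2 difference of -0.34, and summed to 2204 to 3474 CPM with stress and 2108 to 4607 CPM without. The median was -0.13 without stressed replicate 1 and -0.02 without non-stressed replicate 4, the library at 4607 CPM, and it was 0.20 with the first library code alone. Lum, a matrix proteoglycan, had 48, 68.3, 49.9 and 78.7 CPM with stress and 38.7, 137, 96.1 and 178 CPM without (log2 difference -0.87, or -0.77 without stressed replicate 1). Endothelial markers were fitted higher for 7 and lower for 7 of 14, with a median of -0.03 and 0.16 without stressed replicate 1, at 227 to 495 CPM summed with stress and 351 to 477 CPM without. Microglial and macrophage markers were fitted higher for 6 and lower for 9 of 15, and the median log2 difference of -0.11 was 0.01 without stressed replicate 1 and ranged from -0.39 to 0.21 on leaving out 1 library. They summed to 178 to 271 CPM with stress and 77.4 to 260 CPM without. Csf1r, a receptor microglia need to survive, had 53.7, 31.6, 33.8 and 42.9 CPM with stress, above the 6.06, 17.9, 22.7 and 19 CPM of the non-stressed samples, while Tmem119, a microglial marker, was lower without overlap. The 5 tested erythroid markers were fitted higher with all 8 libraries, but without stressed replicate 1 the split was 4 higher and 2 lower of 6, and the median of 0.68 was 0.42 without that library and -0.23 with the second library code alone. Over the list they summed to 107 to 307 CPM with stress and 37.4 to 235 CPM without.

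**Figure D4:**
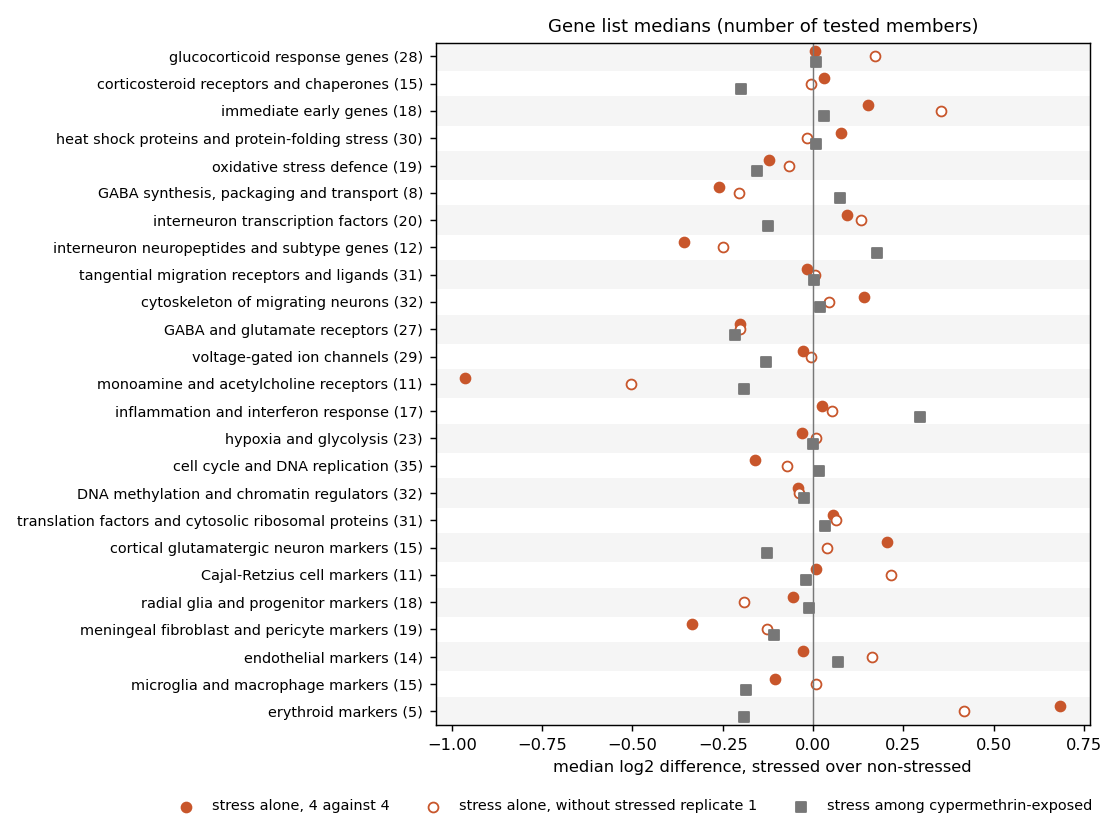
Median log2 difference, stressed over non-stressed, of 25 gene lists with the number of tested members in brackets, for 4 against 4 libraries (filled circles), without stressed replicate 1 (open circles) and for stress among cypermethrin-exposed dams (grey squares). The median of the glucocorticoid response genes lies at 0.00, and that of the monoamine and acetylcholine receptors at -0.96, -0.50 and -0.19.

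The same contrast among cypermethrin-exposed dams uses 8 other libraries, so it gives a second measure of restraint that shares no sample with the first. It too had 0 of 13224 genes called (0%, smallest adjusted p = 0.997 by edgeR's quasi-likelihood test), with 570 (4.31%) at an unadjusted p under 0.05, 1.52% higher and 2.79% lower with stress. Its groups did not overlap for 1.37% of genes on the higher and 1.21% on the lower side. Of the 423 genes higher with stress alone, 202 (47.8%) were higher with stress under cypermethrin. Of the 249 lower genes, 142 (57.0%) were lower there. Among all tested genes, 48.3% were fitted higher there and the rest lower. The median log2 difference there was -0.02 for the 423 genes, -0.05 for the 249 and -0.02 for all tested genes. Across genes, the log2 differences of the pair of comparisons had a Pearson r of 0.03 and a Spearman rho of 0.02, a description over genes that share libraries and are not independent. Of the 24 leading genes, 10 had the same direction and none an unadjusted p under 0.05, and the median size of their log2 differences was 0.19 there and 2.09 with stress alone.

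The difference between the stress effects was tested as the interaction, stress alone minus stress under cypermethrin, and 0 of 13224 genes were called (0%, smallest adjusted p = 0.985 by edgeR's quasi-likelihood test), with 622 (4.7%) at an unadjusted p under 0.05. By that measure 21 of the 24 leading genes were at an unadjusted p under 0.05, which their choice on the first contrast favours. Nes had a log2 difference of 0.72 with stress alone and -0.19 under cypermethrin (interaction 0.91, unadjusted p = 0.0028). Egr1 had 1.01 and -0.63 (interaction 1.64, unadjusted p = 0.0451), and Nr4a3 had 0.48 and -0.45 (interaction 0.93, unadjusted p = 0.0146). For Cck the values were -2.10 and 1.16 (interaction -3.26, unadjusted p = 0.0161). The interactions of Fkbp5 and Tsc22d3 were 0.23 and 0.15, values that do not show their stress effects to be alike.

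Few genes leaned the same way in both. By edgeR's test, 5.08% of the 13224 tested genes were at an unadjusted p under 0.05 with stress alone and 4.31% under cypermethrin. In both comparisons at once, 11 genes were so with the same direction and 7 with opposite directions. Whether this exceeds the overlap of unrelated lists of those sizes was not tested. The 11, chosen after their values were seen, were Egln3, Agps, Dnajc25, Rbmx, Lrr1 and 4930447A16Rik, lower with stress, and Fam134a, Btbd7, Fibcd1, Exosc5 and Pisd-ps3, higher with stress. Egln3 had log2 differences of -3.14 with stress alone and -3.05 under cypermethrin. Under cypermethrin its groups overlapped, at 0 to 3.99 CPM with stress and 0.467 to 52.6 CPM without. Rbmx, an RNA-binding protein of splicing, had -0.40 and -0.42, with 343, 277, 248 and 310 CPM in stressed vehicle samples and 507, 396, 307 and 342 CPM in non-stressed vehicle samples. Btbd7 had 0.86 and 0.96, and without stressed replicate 1 its stressed vehicle values of 122 to 235 CPM lay above the 58.8 to 98.6 CPM of the non-stressed ones.

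**Figure D5:**
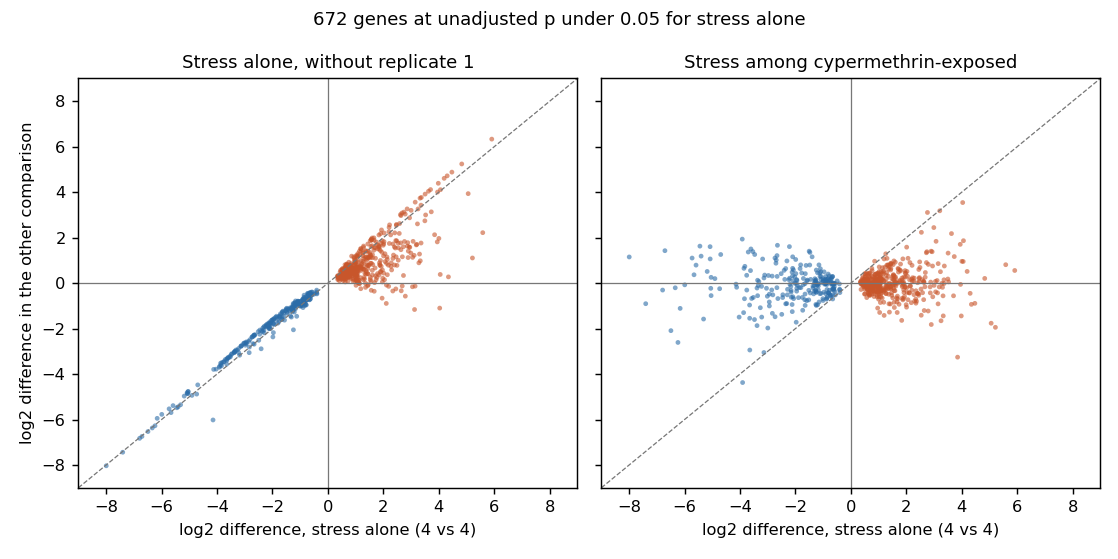
Log2 differences of the 672 genes at an unadjusted p under 0.05 for stress alone (x axis), against the same genes without stressed replicate 1 (left) and against stress among cypermethrin-exposed dams (right), orange for genes higher and blue for genes lower with stress alone. On the left 649 genes kept their direction, and on the right 202 of the 423 higher and 142 of the 249 lower genes did. The left comparison reuses the remaining libraries of the first, which favours a kept direction. Of all tested genes, 48.3% were fitted higher with stress under cypermethrin and the rest lower.

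What the library code stands for is not given in the sources used here. With the first code, which holds stressed replicates 1 and 2 and non-stressed replicates 1 and 2, 45 genes were called at an adjusted p under 0.05 by edgeR's quasi-likelihood test, 42 higher and 3 lower, and 38 of them peaked in stressed replicate 1. Without that library 6 were called, but this leaves stressed replicate 2 as the only stressed library, which is assumed to vary like the other groups, and the value has no replicate check. With the second code 0 were called and 301 had an unadjusted p under 0.05, and of 43 of the first code's calls that could be tested there 21 had the same direction. A fit with the code as a term called 0 genes, with 582 at an unadjusted p under 0.05.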

How the data were processed

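The deposited data were raw counts in a single table of 24539 gene symbols and 16 samples. Reads had been aligned with STAR 2.5 to mm10, per the submitters' processing notes, after library preparation with a low-input total RNA kit (Trio RNAseq), per the labels' protocols. How reads were counted, on which annotation and strand, is not given in these sources.

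Samples were grouped by the exposures in their labels, each from a separate litter. Replicate numbers follow accession order and pair nothing. Of the genes, 18733 had a count. Genes were kept by filterByExpr with a count minimum of 10, which left 13224, or 13609 without stressed replicate 1. All 16 libraries entered a quasi-likelihood fit by group in edgeR 4.0.16 (R 4.3.3), with TMM scaling and robust dispersion (common dispersion 0.344, 12 residual degrees of freedom). Benjamini-Hochberg adjustment ran over all tested genes, and calls were made at an adjusted p under 0.05. CPM are over TMM-scaled library sizes, and a log2 difference is stressed minus non-stressed. The median standard error over genes was 0.54. Counts of 1 to 3 in a group are given with an exact 95% interval, which covers counting error only, as does the floor of 3 counts. Exact permutation tests used SciPy 1.17.1. The fit was tested on simulated counts.

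Alternatives were DESeq2 1.42.0, limma 3.58.1 (voom), other scalings, filters and sample sets, the library code, and leaving out each library. Leaving out stressed replicate 1 within the first code, and with non-stressed replicate 1, was chosen after seeing the data. Positions are from GENCODE vM21 (GRCm38, the same build as mm10), in which 23835 symbols had 1 gene. Overlaps with other genes are mentioned above for some named genes only. Ncor1 also overlaps Pigl and Ttc19, Ccdc167 overlaps Cmtr1 and Gm28043, Tubgcp6 overlaps Selenoo and Cntn3 overlaps 4930587E11Rik. The named genes are the 24 with the smallest unadjusted p, the 12 with the smallest without stressed replicate 1, the 3 leading members of each gene list and a fixed set of 23, leaving out models known by clone or locus number from the first pair of these. A few of these genes are not reported here. The members of the comparison, the gene lists and the tests were chosen with earlier results of these data known.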

Additional observations from a re-analysis of the deposited data

Results flagged for a closer look

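Single libraries far from the others of their group were looked for in 198 groups of 4 values, those of 99 named genes in each group, by Dixon's test at its 95% critical value. It marked 34 groups, 25 stressed and 9 non-stressed, and chance marks about 1 in 20. In 16 of the 25, stressed replicate 1 was the high value. These were S1pr3 at 242 CPM, Snx1 at 324, Trim3 at 199, Sertad4 at 441, Wbscr27 at 101, Cacng7 at 432, Map4k2 at 234, Eml2 at 226, Ube2q1 at 312, Slc17a7 at 431, Ncor1 at 1517, Kmt2a at 1998, Slc4a1 at 82.8, Hsph1 at 480, Scn8a at 420 and Xist at 4528 CPM. Genes are not independent in this count, and many were named for their difference between the groups, to which a high stressed library contributes, so the counts per group cannot be set against the chance rate or each other.

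Stressed replicate 2 was high for Med25, at 383 CPM. Values at low counts, such as the single counts of Fstl4 and Col24a1, carry little weight. Stressed replicate 3 was high for Tubgcp6 at 116, Ccdc167 at 196, Plod2 at 169 and Fstl4 at 0.356 CPM. Stressed replicate 4 was high for Fos at 8.25, Hspa1b at 0.471, Col24a1 at 0.236 and Lhx6 at 347 CPM.

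In the non-stressed group, replicate 1 was high for Fstl4 at 22.6 and Kmt2a at 1171 CPM, and replicate 2 for Egln3 at 15.8 and Cxcr4 at 84.4 CPM. Replicate 3 was high for Kdm5c at 135, Nr3c2 at 17.9 and Fos at 0.505 CPM and low for Ube2q1 at 103 CPM. Replicate 4 was high for Plod2 at 33.2 CPM.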

How the results depend on the processing

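No gene was called for stress alone with DESeq2, limma voom, RLE or upper-quartile scaling, either other filter, only the 8 vehicle libraries, the library code as a term, the second code alone, or without any 1 library. The exceptions were the first library code alone, with 45 calls, and that code without stressed replicate 1, with 6, where a lone stressed library was assumed to vary like the other groups. Without stressed replicate 1 DESeq2 called 1 gene, Cntn3, and limma voom and a fit of the 7 vehicle libraries called 0. Genes at an unadjusted p under 0.05 numbered 672 as reported, 1268 with no filter, 301 with the second code, and 472 (without stressed replicate 1) to 1089 (without stressed replicate 4) on leaving out 1 library. Without replicate 1 of both groups there were 398, and with the first code less stressed replicate 1 there were 355. The cause of these differences was not tested.

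Some log2 differences of named genes changed sign. On leaving out 1 library they ran from -0.54 to 0.43 for Dusp1, -0.20 to 0.29 for Fkbp5, -0.64 to 0.21 for Sgk1, -0.0371 to 0.20 for Lhx6, -0.15 to 0.0056 for Hsp90aa1, -0.12 to 0.51 for Dlx1, -0.0188 to 0.32 for Gad2, -0.98 to 0.20 for Ube2q1 and -0.42 to 2.01 for Ccdc167. The low end was without stressed replicate 1 for Nr3c1 (-0.65 to 0.91), Slc4a1 (-0.025 to 2.64) and Hsph1 (-0.26 to 0.84). The first code alone gave 0.31 for Ube2q1, -0.84 for Ccdc167, -0.0283 for Dusp1, -0.40 for Gad2, -0.14 for Lhx6 and -0.12 for Erbb4. The second code alone gave -0.14 for Mir378b, -0.10 for Ebf3, 0.10 for Mcm7, -0.52 for Slc4a1, -0.19 for Hbb-y, 0.12 for Grin2b, -0.11 for Hsph1, -1.68 for Nr3c1, -0.55 for Fkbp5 and 0.0091 for Hsp90aa1. Limma voom gave -0.24 for Nr3c1 and -0.15 for Dusp1, and upper-quartile scaling -0.0479 for Fkbp5.

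No paired analysis was possible because replicate numbers follow accession order only. With a median standard error of 0.54, modest differences in single genes could not be detected. Fixed, laser-captured input and 4 embryos a group limit precision, and sex and capture cannot be separated within stressed replicate 1. Its code was shared by stressed replicate 2 and non-stressed replicates 1 and 2, which had at most 8.14 CPM of Xist. What set that library apart was not tested.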

Other observations

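Other transcripts of supporting tissue and of neuronal guidance gave these values, none of them at an unadjusted p under 0.05. P2ry12, a receptor of microglia, had 10.6 to 33.8 CPM in stressed samples and 4.01 to 21.9 CPM in non-stressed samples, in a list with 9 of 15 markers fitted lower. Col1a1 and Col3a1, fibrillar collagens, had 159 to 389 and 218 to 449 CPM with stress, against 227 to 719 and 286 to 771 CPM without. Plxna1, a receptor component for semaphorins, had 558, 244, 365 and 260 CPM with stress and 303, 292, 211 and 184 CPM without. Hbb-y, an embryonic globin, had 154, 68.9, 73.7 and 120 CPM with stress and 2.69, 5.88, 42.6 and 178 CPM without, so the non-stressed libraries spanned a wider range than the stressed ones. Eef1a1, a translation elongation factor, had 4698 to 5720 CPM with stress and 4156 to 4750 CPM without.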
